A study of Mus musculus with 6 samples.

Results

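The clustered protocadherins are cell-surface adhesion proteins encoded in 3 neighbouring gene arrays, alpha, beta and gamma. They were taken here as every gene of the count table whose GENCODE M21 symbol starts with Pcdha, Pcdhb or Pcdhg and a member number or letter, which gave 58 of 54418 genes. The rule reads symbols alone, but the family was chosen by measured values, with the results of this same comparison of GATA6KO with Control in view. The differences below therefore describe these libraries and are not independent evidence that the family changed. It held 14 alpha, 22 beta and 22 gamma genes, all on the plus strand of chromosome 18 (mm10), at 36930184 to 37187661, 37264938 to 37524479 and 37661793 to 37841873. A count was found in any library for 48 of the 58, and 13 passed the filter on low counts and were tested. RNA came from mouse organoids of a line labelled AKP, a name that the labels do not spell out. The groups were 3 libraries of genotype GATA6KO and 3 libraries of genotype Control, and the labels give no other treatment, time or allele. The series concerns colorectal cancer organoids passed through mouse colon and liver metastases, and the labels tie none of these libraries to a transplant. They say nothing of where Gata6 was cut, of the number of clones or of separate cultures. What the p-values set the difference against is thus the library-to-library spread, possibly a technical one.

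Protocadherins of the clusters carry extracellular cadherin repeats and bind the same isoform on a facing cell. They are best known from neurons, where each cell uses a small set of isoforms from its own promoters and so carries a surface label that neighbouring branches can recognise. Each alpha and gamma gene has its own first exon, which holds the extracellular and membrane parts, and is spliced to constant exons shared by its whole cluster. Beta genes are single-exon genes with no constant part. The promoters are opened or kept silent by DNA methylation, and active promoters are brought to distant enhancers by the insulator protein CTCF and the ring complex cohesin. The members labelled C (Pcdhac and Pcdhgc genes) differ from the others in their promoters and are used more constitutively in neurons.

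The libraries held 29674562, 29208525 and 29339961 counts in GATA6KO replicates 1 to 3, against 22973245, 29685711 and 31328415 in Control replicates 1 to 3. Gata6, the targeted gene, measured 14.28, 16.03 and 8.24 CPM (counts scaled to library size, with TMM factors) in GATA6KO replicates 1 to 3, against 25.3, 23.2 and 28.0 CPM in Control replicates 1 to 3 (log2 fold change -0.99, SE 0.25, edgeR adjusted p = 0.0486). The edgeR test called 1823 of 14714 genes at an adjusted p under 0.05, which is 12.4%, with 1018 higher (6.92%) and 805 lower (5.47%). All 9 epithelial markers passed the filter, at a summed 6952 to 8301 CPM in GATA6KO, against 10560 to 11490 CPM in Control. By edgeR 0 rose and 3 fell (Krt8, Krt18 and Cdh1), with 0 and 8 at an unadjusted p under 0.05, 0 and 7 by DESeq2 and 0 and 4 by limma-voom. The call of Krt8 was lost without Control replicates 1, 2 and 3 (adjusted p = 0.103, 0.117 and 0.124), that of Krt18 without Control replicates 2 and 3 (0.0565 and 0.0614), and that of Cdh1 without each Control library (up to 0.127). The call of Gata6 was lost without any 1 of the Control libraries (adjusted p up to 0.181).

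Reads of these genes cannot always be placed. An alpha gene shared 2860 to 2864 exonic bases with other alpha genes, and a gamma gene 2116 to 3157 with other gamma genes, while beta genes shared none except Pcdhb21 and Pcdhb22, which overlap by 455. Of the 31-base words in a member's transcripts, a median of 88.2% occurred in no other gene for the beta genes, against 51.0% for gamma and 35.7% for alpha genes. Values of single alpha and gamma genes therefore rest partly on how the authors' counting divided shared reads, a division that leaves the sum over a cluster unchanged where reads are shared within it. Among beta genes Pcdhb12 had the fewest words of its own, 33.1%. Pcdhgc3, the most abundant gamma gene, had 33.8% of its words to itself, while 61.9% occurred in no other member. Part of its words thus occurs in genes outside the family, and the gamma sum can depend on how such reads were divided.

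The beta cluster was higher in GATA6KO organoids, while the libraries of both groups overlapped in the gamma cluster, which holds most of the family's counts in Control organoids. The 22 beta genes together had 522, 518 and 587 counts in GATA6KO replicates 1 to 3, against 74, 78 and 75 in Control replicates 1 to 3. Their summed level was 18 ± 1.38 CPM in GATA6KO and 2.82 ± 0.383 CPM in Control (SD, n = 3 each), a ratio of 6.39. Every GATA6KO library lay above every Control library, and the 3 GATA6KO libraries were 6.03 to 6.95 times the Control mean. The 22 gamma genes together had 831, 1087 and 477 counts in GATA6KO replicates 1 to 3, against 865, 973 and 1032 in Control replicates 1 to 3. Their summed level was 26.4 ± 9.93 CPM in GATA6KO and 35.4 ± 2.24 CPM in Control, a log2 ratio of -0.42. GATA6KO replicate 2 lay among the Control libraries, and GATA6KO replicate 3 was the lowest of all 6. Alpha transcripts were near absent, with at most 3 counts over all 14 genes in any library. In bulk RNA, a higher level in every cell and a larger share of cells that express a gene cannot be told apart.

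**Figure D1:**
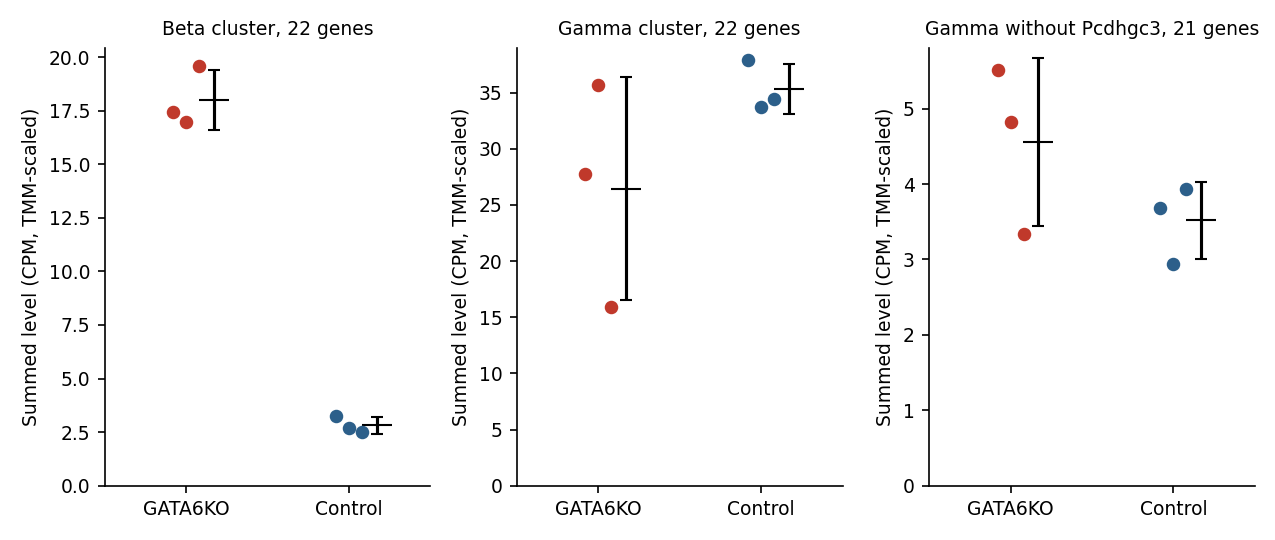
Summed level of the beta cluster, the gamma cluster and the gamma cluster without Pcdhgc3, in TMM-scaled CPM on axes that start at 0. Dots are libraries, and the black bar and whiskers are the group mean ± SD (n = 3). The GATA6KO and Control libraries are far apart for beta (18 against 2.82 CPM on average) and overlap for both gamma sums.

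The make-up of the family differed accordingly. Beta genes took 38.5%, 32.2% and 55.2% of all clustered protocadherin counts in GATA6KO replicates 1 to 3, against 7.86%, 7.42% and 6.77% in Control replicates 1 to 3. The 95% Wilson intervals were 36.0% to 41.1%, 29.97% to 34.5% and 52.2% to 58.1% in GATA6KO and lay between 5.43% and 9.76% in Control, and cover counting error only. Pcdhgc3 alone took 49.2%, 58.5% and 35.4% in the GATA6KO libraries, against 83.0%, 84.5% and 82.5% in the Control libraries. The family's total was 44.5 ± 8.64 CPM in GATA6KO and 38.2 ± 2.63 CPM in Control (SD, n = 3 each), and the groups overlapped.

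**Figure D2:**
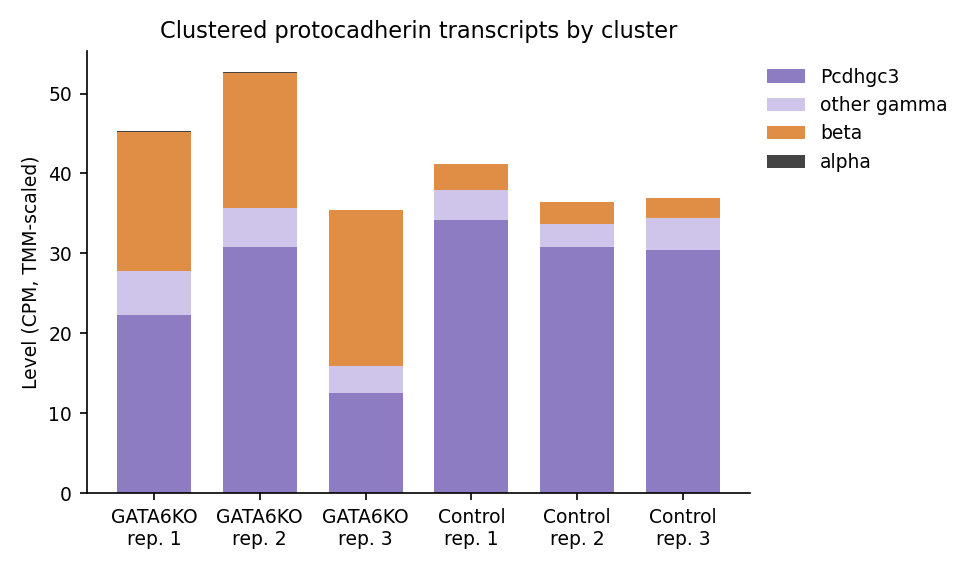
Clustered protocadherin transcripts in each library, as stacked TMM-scaled CPM of Pcdhgc3, the other gamma genes, the beta genes and the alpha genes. The beta part is 16.98 to 19.6 CPM high in the GATA6KO libraries and at most 3.24 CPM in the Control libraries, while the Pcdhgc3 part varies among the GATA6KO libraries.

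Of the 22 beta genes, 9 had enough counts to be tested, and all 9 were called higher, with log2 fold changes of 1.97 to 3.61. The share of all tested genes called higher was 6.92%. The filter asked for the equivalent of 10 counts in 3 libraries, which Pcdhb17 alone reached within Control. The other 8 passed only with the help of their GATA6KO libraries. That favours genes that are higher there without forcing a difference, so the count of 9 is no support for a change of the cluster. Pcdhb17 (chromosome 18, 37484795 to 37489454), the most abundant beta gene, had 104, 161 and 114 counts in GATA6KO replicates 1 to 3, against 15, 14 and 15 in Control replicates 1 to 3. It measured 4.19 ± 0.960 CPM in GATA6KO and 0.548 ± 0.0952 CPM in Control (log2 fold change 2.93, SE 0.30, edgeR adjusted p = 0.00327). Pcdhb16, its neighbour on the chromosome, had 71, 83 and 111 counts in GATA6KO replicates 1 to 3, against 8, 3 and 8 in Control replicates 1 to 3. It had the largest log2 fold change of the 9, 3.61 (SE 0.46, edgeR adjusted p = 0.00628). For both genes the lowest GATA6KO library was several times the highest Control library.

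Pcdhb19, Pcdhb20 and Pcdhb22, further along the array, were also higher. Pcdhb19 had 54, 40 and 52 counts in GATA6KO replicates 1 to 3, against 3, 9 and 2 in Control replicates 1 to 3 (log2 fold change 3.21, SE 0.52, edgeR adjusted p = 0.0135). Pcdhb20 had 47, 49 and 31 counts in GATA6KO, against 3, 6 and 7 in Control (log2 fold change 2.83, SE 0.38, edgeR adjusted p = 0.0068). Pcdhb22 had 47, 56 and 52 counts in GATA6KO, against 4, 13 and 10 in Control (log2 fold change 2.39, SE 0.38, edgeR adjusted p = 0.0124). In these 3 genes, too, no GATA6KO library came near the Control range. Pcdhb18 had 19, 28 and 28 counts in GATA6KO, against 5, 7 and 5 in Control, the smallest change of the 9 (log2 fold change 1.97, SE 0.36, edgeR adjusted p = 0.0183).

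The remaining tested beta genes lie nearer the start of the array and were sparser. Pcdhb4 had 14, 13 and 11 counts in GATA6KO replicates 1 to 3, against 2, 1 and 1 in Control replicates 1 to 3 (log2 fold change 2.98, edgeR adjusted p = 0.0141). Pcdhb5 had 29, 11 and 30 counts in GATA6KO, against 0, 3 and 4 in Control (log2 fold change 3.15, edgeR adjusted p = 0.0436). Pcdhb12 had 18, 12 and 18 counts in GATA6KO, against 4, 4 and 2 in Control (log2 fold change 2.06, edgeR adjusted p = 0.0336). Every GATA6KO library exceeded every Control library in the 3 genes, as in 20.3% of all genes tested, though single Control libraries held as few as 0 counts. These genes are given here because they were called, and they passed the filter through GATA6KO, which favours such a gap.

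Pcdhb17 alone kept its call without each of the 6 libraries in turn. Without Control replicates 1, 2 and 3, the beta genes called numbered 4, 4 and 1, and the share of all genes called higher was 1.68%, 1.51% and 1.33%. Without GATA6KO replicates 1, 2 and 3 they numbered 8, 12 and 7, and the share of all genes called higher was 14.8%, 8.59% and 7.16%. Pcdhb5 was called in 1 of the 6 fits (adjusted p up to 0.154), Pcdhb12 in 2 (up to 0.162), Pcdhb18 in 3, Pcdhb4, Pcdhb19, Pcdhb20 and Pcdhb22 in 4, and Pcdhb16 in 5 (0.0517 without Control replicate 3). The log2 fold changes of the 9 genes lay between 1.73 and 3.99 over the 6 fits.

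**Figure D3:**
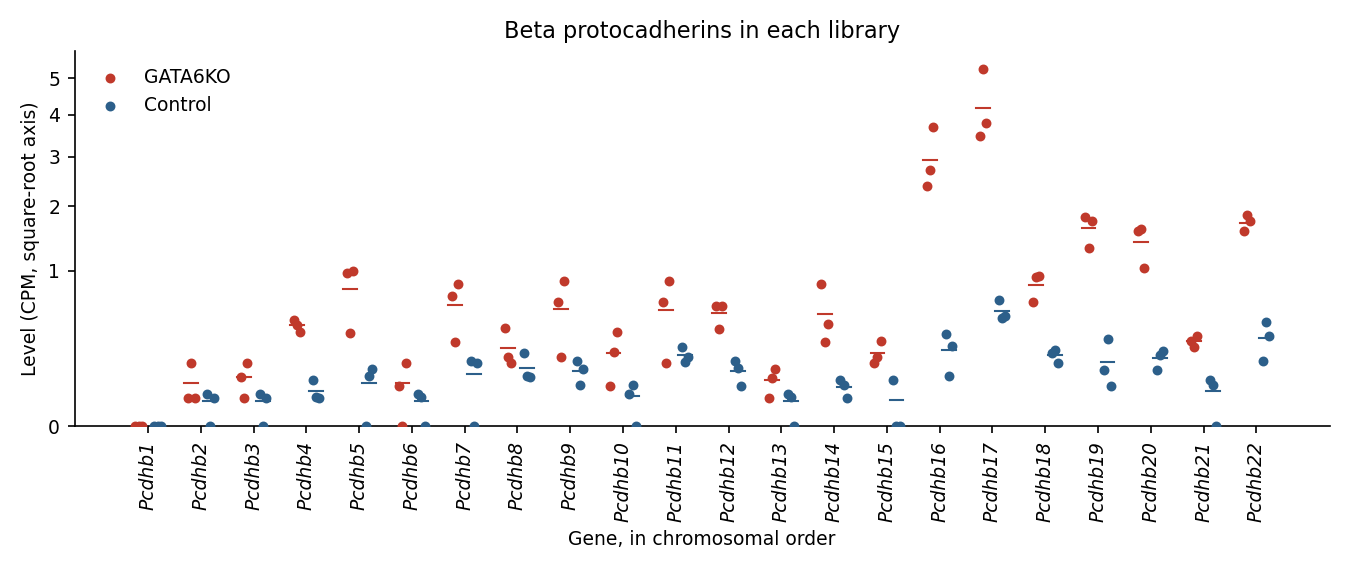
Level of each of the 22 beta genes in chromosomal order, in TMM-scaled CPM on a square-root axis. Dots are libraries (GATA6KO left of Control for each gene) and short lines are group means (n = 3). The GATA6KO means are above the Control means for 21 genes, most widely at Pcdhb16 and Pcdhb17, and Pcdhb1 is at 0 in all 6 libraries.

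The 12 beta genes that had counts but were not tested were higher on average as well. Each had a higher mean CPM in GATA6KO than in Control, with 7 to 55 counts summed over the GATA6KO libraries, against 2 to 17 over the Control libraries. Pcdhb1, the first gene of the array and one with all of its 31-base words its own, had 0 counts in all 6 libraries, where 3 counts would have been 0.0984 to 0.131 CPM. Without a filter, 10 members were called higher, where 3.55% of all genes were (5.97% in either direction), and the addition to the 9 was Pcdhb14 (25, 9 and 13 counts in GATA6KO, against 2, 2 and 1 in Control, unfiltered log2 fold change 3.01, edgeR adjusted p = 0.0171). Over the whole cluster, every GATA6KO library exceeded every Control library in 14 of 22 genes, against 12.2% of all genes with a count and 20.3% of all genes tested. The median log2 fold change of the 21 beta genes with a count was 2.42 without a filter, against 0.04 over all 30354 genes with a count.

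At least 10 counts were reached by 14, 9 and 15 beta genes in GATA6KO replicates 1 to 3, against 1, 2 and 2 in Control replicates 1 to 3. The order of beta genes by abundance was similar in both groups, with a Spearman rho of 0.905 over 21 genes between the summed counts of GATA6KO and Control. These genes share libraries, and their lengths differ, so the value is a description. Per kilobase of exon, Pcdhb17 led at 0.898 CPM per kb in GATA6KO and 0.117 in Control, followed in GATA6KO by Pcdhb16 at 0.561 and Pcdhb20 at 0.395. The 7 genes at the 3' end of the array, Pcdhb16 to Pcdhb22, held 67.2%, 82.1% and 67.8% of the beta counts in GATA6KO replicates 1 to 3, against 54.1%, 69.2% and 62.7% in Control replicates 1 to 3. Those group ranges overlap. The split at Pcdhb16 was chosen after the values were seen.

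GATA6KO replicate 2 stood apart within the array although its beta sum did not. It had 93 counts over Pcdhb1 to Pcdhb15, against 171 and 189 in GATA6KO replicates 1 and 3 and 34, 24 and 28 in Control replicates 1 to 3. It had the most counts of any library over Pcdhb16 to Pcdhb22, 425, against 351 and 398 in GATA6KO replicates 1 and 3. Pcdhb17 took 31.1% of its beta counts (95% Wilson interval 27.3% to 35.2%), and 19.9% and 19.4% in GATA6KO replicates 1 and 3. GATA6KO replicate 2 also departed outside the array. The cadherin gene Cdhr2 measured 147.9 CPM in it, against 21.87 and 32.05 CPM in GATA6KO replicates 1 and 3. The cohesin gene Wapl measured 110.7 CPM in it, against 225.9 and 242.3 CPM. The contrast and both of these genes were chosen after their values were seen.

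Markers of neurons, the cells in which this family is best known, were mixed. The 9 neuronal markers summed to 8.47 to 20.0 CPM in GATA6KO, against 2.77 to 3.94 CPM in Control, most of it from Map2. Of the 3 tested, 1 was called, where 12.4% of all tested genes were, and 3 genes are too few to set the list apart. The called gene was Map2, a microtubule-associated protein, with 474, 539 and 240 counts in GATA6KO replicates 1 to 3, against 70, 54 and 70 in Control replicates 1 to 3 (log2 fold change 2.52, edgeR adjusted p = 0.00876, lost without Control replicates 2 and 3 at 0.0524 and 0.0632). Tubb3, a neuronal tubulin, averaged 0.397 CPM in GATA6KO and 0.435 CPM in Control, and the neurofilament gene Nefl had 69, 22 and 2 counts in GATA6KO, against 4, 13 and 17 in Control (edgeR adjusted p = 0.902 and 0.403). The groups overlapped in both. Syt1 had 2, 9 and 3 counts in GATA6KO, against 0, 0 and 1 in Control, and Uchl1 had 1, 15 and 2 counts in GATA6KO, against 0, 3 and 2 in Control. Of these Syt1 did not overlap between the groups. The defining markers Rbfox3, Elavl4 and Stmn2 had at most 1 count in any library, and Snap25 had 0, 8 and 0 counts in GATA6KO, against 0, 0 and 1 in Control. The 7 glial markers summed to 37.5 to 43.9 CPM in GATA6KO, against 47.3 to 49.7 CPM in Control, almost all of it from Mbp (40.7 and 47.6 CPM in GATA6KO and Control), with S100b, Sox10 and Olig2 at most at 1 count. Fibroblast markers summed to 2.98 to 16.8 CPM in GATA6KO, against 13.6 to 17.4 CPM in Control, mainly from Vim (8.07 CPM in GATA6KO and 15.4 CPM in Control), with Lum at 0 and Dcn at most at 2 counts. Col1a1 had 4, 0 and 4 counts in GATA6KO, against 7, 7 and 8 in Control, whereas Col3a1 had 3, 3 and 7 counts in GATA6KO, against 1, 2 and 2 in Control. Pdgfra had 1, 8 and 6 counts in GATA6KO, against 0, 1 and 1 in Control, and Pdgfrb had 10, 0 and 2 counts in GATA6KO, against 2, 5 and 2 in Control. These fibroblast markers went in both directions. Endothelial markers summed to 3.54 to 5.62 CPM in GATA6KO, against 2.63 to 2.73 CPM in Control, mainly from Vwf (4.28 and 2.31 CPM), followed by Pecam1 (0.387 and 0.193 CPM), with Emcn at 0 and Kdr at most at 1 count. Tek and Cdh5 were lower on average. Tek had 0, 2 and 3 counts in GATA6KO, against 3, 2 and 6 in Control, and Cdh5 had 1, 0 and 0 counts, against 1, 3 and 0. The 7 haematopoietic markers summed to at most 0.689 CPM in GATA6KO and 0.624 CPM in Control, led by Ptprc and Itgam with at most 11 counts. Over these 4 lists edgeR called 0 of 4 tested genes, where 12.4% of all tested genes were called. Vwf had an unadjusted p under 0.05 and was called by DESeq2 but not by limma-voom. Without GATA6KO replicate 2 edgeR called Vwf higher (adjusted p = 0.0229), and without GATA6KO replicate 1 it called Vim lower (0.0166). What part these cells or markers have in the beta levels was not tested.

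Gamma genes overlapped between the groups as a sum, and single members lay on either side. Pcdhgc3 (chromosome 18, 37806364 to 37841873), a C-type member reported to bind Axin1, a scaffold of Wnt signalling, had more counts than any other member in all 6 libraries. In GATA6KO replicate 3 the beta genes together had more. Pcdhgc3 had 666, 940 and 377 counts in GATA6KO replicates 1 to 3, against 781, 888 and 914 in Control replicates 1 to 3. It measured 21.9 ± 9.13 CPM in GATA6KO and 31.8 ± 2.08 CPM in Control (log2 fold change -0.54, SE 0.30, edgeR adjusted p = 0.262). GATA6KO replicate 2 lay within the Control range, and GATA6KO replicates 1 and 3 lay below it. The other C-type members, Pcdhgc4 and Pcdhgc5, had at most 5 counts in any library.

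Among gamma B genes, which single neurons use in varying combinations, Pcdhgb7 had 36, 41 and 38 counts in GATA6KO replicates 1 to 3, against 19, 30 and 28 in Control replicates 1 to 3. Its groups did not overlap in CPM, but it was not called (log2 fold change 0.44, SE 0.26, edgeR adjusted p = 0.287). Pcdhgb2 had 27, 18 and 9 counts in GATA6KO, against 7, 5 and 14 in Control, and Pcdhgb6 had 25, 11 and 10 counts, against 12, 8 and 19. Both overlapped between the groups (edgeR adjusted p = 0.295 and 0.922). By edgeR, 0 of the 4 gamma genes tested were called, 0 had an unadjusted p under 0.05, and DESeq2 and limma-voom called 0 of them. Of all tested genes edgeR called 12.4%, so 0 of 4 does not set the gamma genes apart.

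No gamma A gene reached the filter's minimum. Pcdhga11 had 1, 3 and 0 counts in GATA6KO replicates 1 to 3, against 15, 10 and 23 in Control replicates 1 to 3. Without a filter it was called lower (log2 fold change -3.60, edgeR adjusted p = 0.0111), the 1 member called in that direction, where 2.42% of all genes were. Where the filter let it in without 1 library, its adjusted p was 0.0416, 0.0216 and 0.0446 without GATA6KO replicates 1, 2 and 3 and 0.0800 without Control replicate 2. Of its 31-base words 26.7% were its own. Pcdhga8 had 1, 0 and 0 counts in GATA6KO, against 3, 3 and 5 in Control, and BC037039, an antisense gene that overlaps the start of Pcdhgc3 (37805718 to 37807922, minus strand), had 0, 2 and 1 counts, against 5, 6 and 6. In the other direction, Pcdhga7 had 15, 18 and 8 counts in GATA6KO, against 5, 3 and 1 in Control. Pcdhga5 had 3, 9 and 3 counts in GATA6KO, against 0 in all Control libraries, which is at least 4.52-fold higher when Control is set at 3 counts over the group. Neither was called without a filter. Non-overlap upward was found in 3 of 22 gamma genes and downward in 3, against 12.2% and 12.5% of all genes with a count. The genes of this paragraph were chosen after their values were seen, except Pcdhga11, the fifth most abundant gamma gene.

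**Figure D4:**
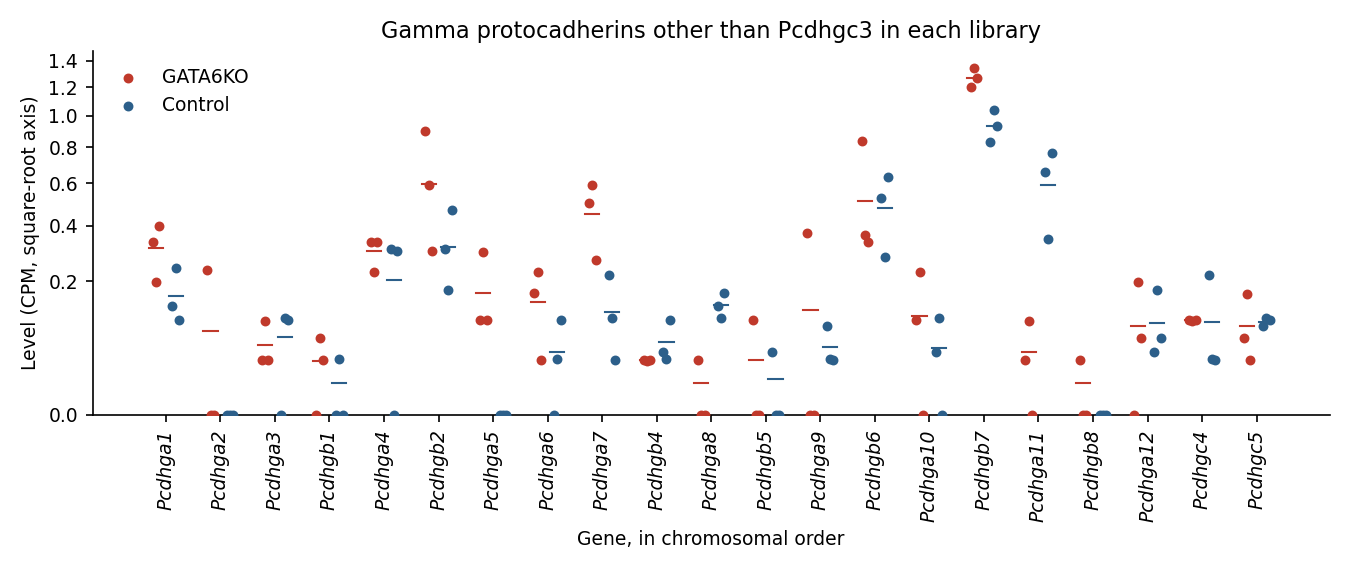
Level of the 21 gamma genes other than Pcdhgc3 in chromosomal order, in TMM-scaled CPM on a square-root axis. Dots are libraries (GATA6KO left of Control for each gene) and short lines are group means (n = 3). All means are at most 1.27 CPM, Pcdhgb7 is the highest in both groups, and Pcdhga11 has 0 to 3 counts in GATA6KO against 10 to 23 in Control.

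Without Pcdhgc3 the gamma cluster summed to 165, 147 and 100 counts in GATA6KO replicates 1 to 3, against 84, 85 and 118 in Control replicates 1 to 3. That was 4.56 ± 1.11 CPM in GATA6KO and 3.52 ± 0.513 CPM in Control (SD, n = 3 each), with GATA6KO replicate 3 inside the Control range. Gamma A genes summed to 1.88 CPM in GATA6KO and 1.51 CPM in Control, and gamma B genes to 2.49 CPM in GATA6KO and 1.82 CPM in Control.

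Alpha genes, the cluster first described in synapses, were at the limit of detection. The 14 genes summed to 2, 3 and 0 counts in GATA6KO replicates 1 to 3, against 2, 0 and 1 in Control replicates 1 to 3. Pcdhac2 had 0, 1 and 0 counts in GATA6KO, against 2, 0 and 0 in Control. Pcdha2 had 1 count in GATA6KO replicate 1, Pcdha9 had 2 in GATA6KO replicate 2 and Pcdha3 had 1 in Control replicate 3. Of the 2 genes that carry the symbol Pcdha11, ENSMUSG00000102206 had 1 count in GATA6KO replicate 1, and the other had 0. In all, 9 alpha genes had 0 counts in every library. A difference between the groups was not detectable at this depth, and no ratio was formed.

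Of the genes around and between the arrays, 7 were tested, with log2 fold changes of -0.90 to 0.44. Taf7, a subunit of the general transcription factor TFIID that lies between the beta and gamma arrays, had 261, 288 and 249 counts in GATA6KO replicates 1 to 3, against 197, 238 and 293 in Control replicates 1 to 3 (log2 fold change -0.01, SE 0.15, edgeR adjusted p = 0.972). It was the 1 gene tested among 27 genes inside the interval that are no member, and 16 of these had 0 counts throughout. Of the others, Slc25a2 had 5, 4 and 4 counts in GATA6KO replicates 1 to 3, against 6, 3 and 15 in Control replicates 1 to 3. The gene 3222401L13Rik had 5, 2 and 17 counts in GATA6KO, against 7, 2 and 1 in Control. Both overlapped between the groups and were named after their values were seen. On the side of the alpha array, the histidyl-tRNA synthetases Hars and Hars2 and the zinc finger gene Zmat2 had log2 fold changes of 0.15, 0.36 and 0.44. Of these only Zmat2 was called (edgeR adjusted p = 0.0462), a call lost in 5 of 6 fits without 1 library, all 3 that lacked a Control library among them (adjusted p up to 0.183). Hars2 was called without GATA6KO replicate 1 (adjusted p = 0.0398). On the side of the gamma array, the formin Diaph1, the deacetylase Hdac3 and Rell2 had log2 fold changes of -0.17, -0.10 and -0.90 (edgeR adjusted p = 0.410, 0.426 and 0.0899). Gata6 lies on the same chromosome, at 11052064 to 11085635. Over 266 genes of chromosome 18 with at least 5 CPM in Control, the median log2 ratio to the Control mean was -0.04, -0.03 and -0.03 in GATA6KO replicates 1 to 3. It was -0.01, -0.02 and -0.01 over 10104 genes not on chromosome 18. Over 28 genes within 1 Mb of the arrays, members left out, it was -0.06, -0.02 and -0.14.

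**Figure D5:**
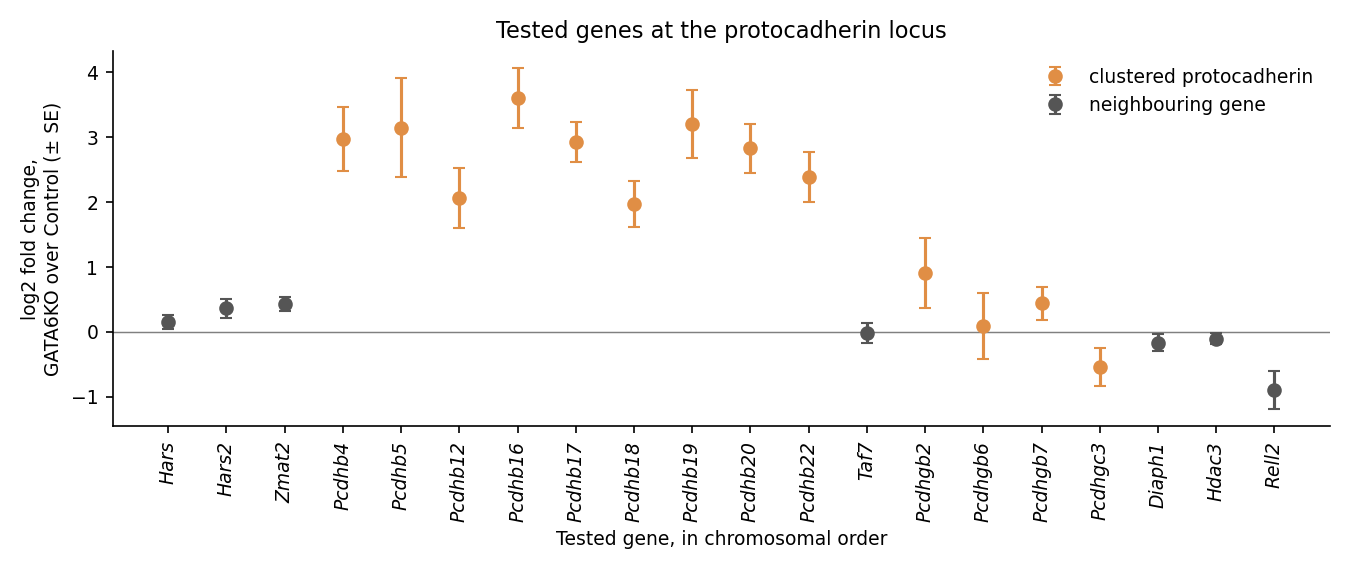
Log2 fold change, GATA6KO over Control, of the 13 protocadherins and 7 neighbouring genes tested, in chromosomal order, with SE as whiskers. The 9 beta genes lie between 1.97 and 3.61, and Taf7, between the arrays, lies at -0.01.

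Outside the clusters, Pcdh19, an adhesion protein of the developing brain encoded on chromosome X, rose. It had 138, 106 and 21 counts in GATA6KO replicates 1 to 3, against 12, 8 and 11 in Control replicates 1 to 3 (log2 fold change 2.91, SE 0.71, edgeR adjusted p = 0.0449). GATA6KO replicate 3 lay much nearer to Control than the other GATA6KO libraries, and the call was lost in 5 of 6 fits that left out a library (adjusted p up to 0.179). Of 4 tested nonclustered protocadherins 2 rose and 0 fell by edgeR, against 6.92% and 5.47% of all tested genes (2 and 0 at an unadjusted p under 0.05, 2 by DESeq2 and 1 by limma-voom), with a median log2 fold change of 1.17, against 0.02 over all genes tested. The second was Pcdh18, at 0.608 and 0.161 CPM in GATA6KO and Control (log2 fold change 1.90, edgeR adjusted p = 0.0227, and up to 0.143 without any 1 Control library). Pcdh1, the protocadherin of epithelia that lies beyond the gamma array, was the most abundant of them at 70.3 and 79.5 CPM in GATA6KO and Control (log2 fold change -0.18, edgeR adjusted p = 0.382). Within Control, Pcdh17 (4, 12 and 6 counts), Pcdh18 (4, 5 and 4) and Pcdh19 did not reach the filter's minimum in every library. They passed through their GATA6KO libraries, so the count of 2 and the median are no support for a change of the list. Pcdh17, Pcdh18 and Pcdh1 were named after their values were seen.

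The other cadherins that were called fell, and all 3 are known from intestinal epithelium. Cdh17, the liver-intestine cadherin, measured 404, 457 and 396 CPM in GATA6KO replicates 1 to 3, against 671, 738 and 812 CPM in Control replicates 1 to 3 (log2 fold change -0.82, SE 0.11, edgeR adjusted p = 0.00746). Cdhr5, a protocadherin-like protein that links brush border microvilli, measured 14.7 and 30.1 CPM in GATA6KO and Control (log2 fold change -1.03, edgeR adjusted p = 0.0291). Cdh1, the E-cadherin of adherens junctions, measured 545 and 739 CPM (log2 fold change -0.44, edgeR adjusted p = 0.0246). Of 12 tested, 0 rose and 3 fell by edgeR, against 6.92% and 5.47% of all tested genes, with 2 and 3 at an unadjusted p under 0.05 and 0 and 3 by DESeq2 and by limma-voom alike. The median log2 fold change of the list was -0.15.

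Most genes for the machinery that selects protocadherin promoters did not pass the test. Of 15 CTCF and cohesin genes, 1 rose and 1 fell by edgeR (2 and 1 at an unadjusted p under 0.05), with a median log2 fold change of 0.08. These 2 of 15 are near the 12.4% of all tested genes that were called, so the count does not set the list apart. Pds5b, a regulator of the release of cohesin from DNA, measured 83.8 and 60.9 CPM in GATA6KO and Control (log2 fold change 0.46, edgeR adjusted p = 0.0272). Zfp143, a zinc finger factor, measured 38.3 and 59.2 CPM (log2 fold change -0.63, edgeR adjusted p = 0.0437). Ctcf itself measured 137 and 128 CPM (log2 fold change 0.10, SE 0.09, edgeR adjusted p = 0.472).

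Of 25 tested genes for silencing of the locus, which methylate or demethylate DNA or deposit and read repressive marks, 3 rose and 0 fell. These 3 of 25 are near the 12.4% of all tested genes called in either direction, but 6.92% of all tested genes were called higher. By edgeR 7 were higher and 2 lower at an unadjusted p under 0.05, and DESeq2 called 4 and 1, limma-voom 3 and 0. Tet3, which oxidises methylated cytosine, measured 117 and 78.7 CPM in GATA6KO and Control (log2 fold change 0.57, edgeR adjusted p = 0.0294). Trim28, a corepressor, measured 361 and 287 CPM (log2 fold change 0.33, edgeR adjusted p = 0.0493). The median log2 fold change of the list was 0.21, against 0.02 over all genes tested. Dnmt3b, the DNA methyltransferase that methylates these promoters in mouse embryos, measured 6.89 and 6.26 CPM (log2 fold change 0.14, SE 0.25, edgeR adjusted p = 0.742). Smchd1, which represses the arrays in mouse, measured 131 and 125 CPM (log2 fold change 0.06, SE 0.09, edgeR adjusted p = 0.683). Ctcf, Dnmt3b and Smchd1 were named for their roles, outside the naming rule and with their values seen.

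Among 23 tested genes for cytoplasmic partners and proteases of protocadherins, 3 rose and 0 fell by edgeR. These 3 of 23 are near the 12.4% of all tested genes called in either direction, of which 6.92% were higher, so the count does not set the list apart. At an unadjusted p under 0.05 there were 3 higher and 1 lower, and DESeq2 and limma-voom each called 3 and 1. Fyn, a Src-family kinase reported to bind protocadherin alpha, measured 74.2, 27.0 and 50.5 CPM in GATA6KO replicates 1 to 3, against 8.94, 9.64 and 10.7 CPM in Control replicates 1 to 3 (log2 fold change 2.37, SE 0.35, edgeR adjusted p = 0.0105). Wasf1 and Abi2 are parts of the WAVE complex, which builds branched actin and is bound by some protocadherins. They rose by 1.47 (SE 0.20, edgeR adjusted p = 0.00705) and 1.34 (SE 0.27, edgeR adjusted p = 0.0266). The 3 genes were higher in every GATA6KO library than in any Control library, as were 20.3% of all genes tested. The median of the list was -0.03. The 11 called genes named here from the pathway lists under the naming rule, Pcdh19 among them, each lost the call without Control replicate 2 and without Control replicate 3. Their highest adjusted p over the fits without 1 library was 0.0519 (Cdh17) to 0.239 (Trim28).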

How the data were processed

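Per the labels' protocols, libraries came from poly(A) RNA with a kit that marks strand, NEBNext Ultra II Directional. The authors deposited estimated counts per gene in whole numbers, not scaled between libraries. Salmon 1.3.0 and mm10 are named per the submitters' processing notes, while annotation, the step to genes and strand setting were not given in the sources used here. Of 54418 identifiers, 54096 matched GENCODE M21, which gave symbols, exons and coordinates. Total counts were 22973245 to 31328415 per library, so 3 counts correspond to about 0.1 CPM.

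Genes passing edgeR's filterByExpr (14714) were scaled by TMM and compared, GATA6KO over Control, by the quasi-likelihood test (glmQLFit, robust) with no block term, and calls were made at a Benjamini-Hochberg adjusted p under 0.05 across the tested genes. The SE is the log2 fold change divided by the square root of F. Exonic length is the union of a gene's exons. Words of 31 bases were compared on both strands over all GENCODE M21 transcripts. The tools were DESeq2 1.42.0, limma 3.58.1 and edgeR 4.0.16 under R 4.3.3, and the pipeline was tested on simulated counts. Same-numbered libraries did not deviate together (r = -0.01, 0.07 and -0.09), so numbers were not treated as pairs.

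Members and gene lists were chosen with earlier results of these data known. The naming rule took called members, the 5 most abundant members of each cluster, from each list up to 4 called genes that reached 1 CPM in either group (with none called, the leading 2 by abundance), and tested genes inside the locus and the 3 nearest on each side. Some genes that this rule takes are not reported here. Alternatives were other scalings, filters and tools, a replicate block, and fits that each lacked 1 library.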

Additional observations from a re-analysis of the deposited data

How the results depend on the processing

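The summed beta level kept its direction under both other scalings, with predicted genes of the same strand added and without each library (log2 ratio 2.59 to 2.80, against 2.68), as did the summed gamma level (-0.69 to -0.16, against -0.42). No ratio was formed for the alpha cluster. Members called higher numbered 9, and were 5 under the stricter filter (1 CPM in all libraries of a group), 5 with the replicate number as a block and 1 to 12 without each library. Members called lower numbered 0, and were 1 (Pcdhga11) without a filter and 0 to 1 without each library. All genes called numbered 1823, and were 3238 by DESeq2, 827 with the replicate block and 332 to 4360 without each library. Genes called in the 5 pathway lists numbered 13, and were 3 with the replicate block and 0 to 26 without each library. Gata6 was not called with library totals alone (log2 fold change -0.91, adjusted p = 0.0573) or with the replicate block (-1.03, adjusted p = 0.0915), and it ran from -1.18 to -0.75 without each library. The log2 fold change of Pcdhgb6 (0.09) was -0.21 without Control replicate 2 and -0.46 without GATA6KO replicate 1, and ran up to 0.34 without each library. That of Taf7 (-0.01) was 0.0652 with library totals alone, 0.0070 without a filter and -0.0742 to 0.0542 without each library. Dnmt3b ran from -0.0834 to 0.292 and Smchd1 from -0.0165 to 0.107. Except where fewer samples or genes entered, the cause of these differences was not tested. The block is no pairing of the study, since nothing in the labels ties equal numbers together. With 0 to 15 Control counts per library in each beta gene, folds of single members are imprecise.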
